A study of Mus musculus with 6 samples.

Results

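Genes of the bone morphogenetic protein (BMP) pathway were followed in tailbuds of mouse embryos at embryonic day 9.5. The set holds the 4 ligand genes Bmp2, Bmp4, Bmp5 and Bmp7, the 3 target genes Id1, Id2 and Id3, the inhibitory Smad genes Smad6 and Smad7, and Nog, which encodes the secreted antagonist noggin. These 10 genes were chosen by name from the 37310 gene identifiers listed in each library, and all 10 passed the filter on low counts. The Sd/Sd group comprised 3 libraries of embryos homozygous for Danforth's short tail (Sd), a semidominant allele with an insertion close to Ptf1a, a gene for a transcription factor; the tail of carriers is short. The WT group comprised 3 libraries of WT/WT embryos. Embryos of both groups were on the outbred CD-1 background, and the tissue was cut just before the last somite, so each library mixes all cell types of the tailbud. Tailbuds of 2 embryos were pooled for some libraries, and the sources used here do not say for which.

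BMP ligands are dimeric secreted factors of the TGF-beta superfamily. They bind type I and type II serine-threonine kinase receptors, which phosphorylate SMAD1, SMAD5 and SMAD9; these join SMAD4 and enter the nucleus. Id genes are direct targets whose products bind E proteins and keep them from DNA, while Smad6 and Smad7 are induced by the pathway and feed back on it. Noggin, made in notochord, dorsal neural tube and somites among other tissues, captures BMP ligands outside the cell. In the embryonic tail, BMP signalling is strong in the ventral tissues and takes part in patterning mesoderm, neural tube and hindgut.

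Libraries held 41788978 to 62296689 counts. The comparison of Sd/Sd with WT covered 15471 genes (edgeR quasi-likelihood test, Benjamini-Hochberg adjustment, threshold 0.05). Ptf1a, the gene next to the mutation, measured 20.6, 13.8 and 19.6 CPM (counts scaled to library size, with TMM factors) in Sd/Sd replicates 1 to 3, against 0.0948, 0.0378 and 0.0237 CPM in WT replicates 1 to 3. Tailbud progenitor markers were present in every library: the summed CPM of 9 genes (T, Tbx6, Msgn1, Fgf8, Wnt3a, Nkx1-2, Cyp26a1, Hes7 and Sp5) lay between 318 and 719 in Sd/Sd libraries, against 468 and 636 in WT libraries. Sd/Sd replicate 3 stood apart. The mean centred log2 CPM of 9 tested somite markers was -3.08 in Sd/Sd replicate 3, with Pax1 at 0 counts, against -0.65 to 1.54 in the other 5 libraries, where Pax1 was also at 0 in WT replicate 2. Sd/Sd replicate 2 lay at the other end of the somite and neural crest lists and lowest in the tailbud progenitor list.

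None of the 10 genes passed the test adjusted over all genes: edgeR, DESeq2 and limma-voom each called 0 of 10, where edgeR called 9 of all genes tested, or 0.0582%. The edgeR adjusted p was 1.00 for each of the 10. At an unadjusted p under 0.05 edgeR had 3 of 10, Id3 higher and Smad6 and Nog lower in Sd/Sd, where 2.9% of all genes tested lay. Which genes lay there depended on single libraries. Without Sd/Sd replicate 1 they were the same 3 (2.88% of all genes in that fit), without Sd/Sd replicate 2 they were Id1 and Smad6 (5.95%), and without Sd/Sd replicate 3 they were Bmp4, Id3 and Smad6 (5.36%). Without WT replicate 1 they were Id3 and Smad6 (2.37%), and 0 of 10 lay there without WT replicate 2 (1.81%) or without WT replicate 3 (2.51%). With all libraries, Id3, Smad6 and Nog were also the genes whose CPM did not overlap between the groups, which held for 7.68% of all genes tested. The median log2 fold change of the 10 genes was 0.05, with a range of -0.58 to 0.23, against a median of -0.0003 over all genes tested; the median of the 10 was -0.078 without Sd/Sd replicate 2 and 0.0048 without Sd/Sd replicate 3. By role, the 3 Id genes each had a positive log2 fold change, the ligands were split 2 and 2, and Nog had the lowest value.

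**Figure D1:**
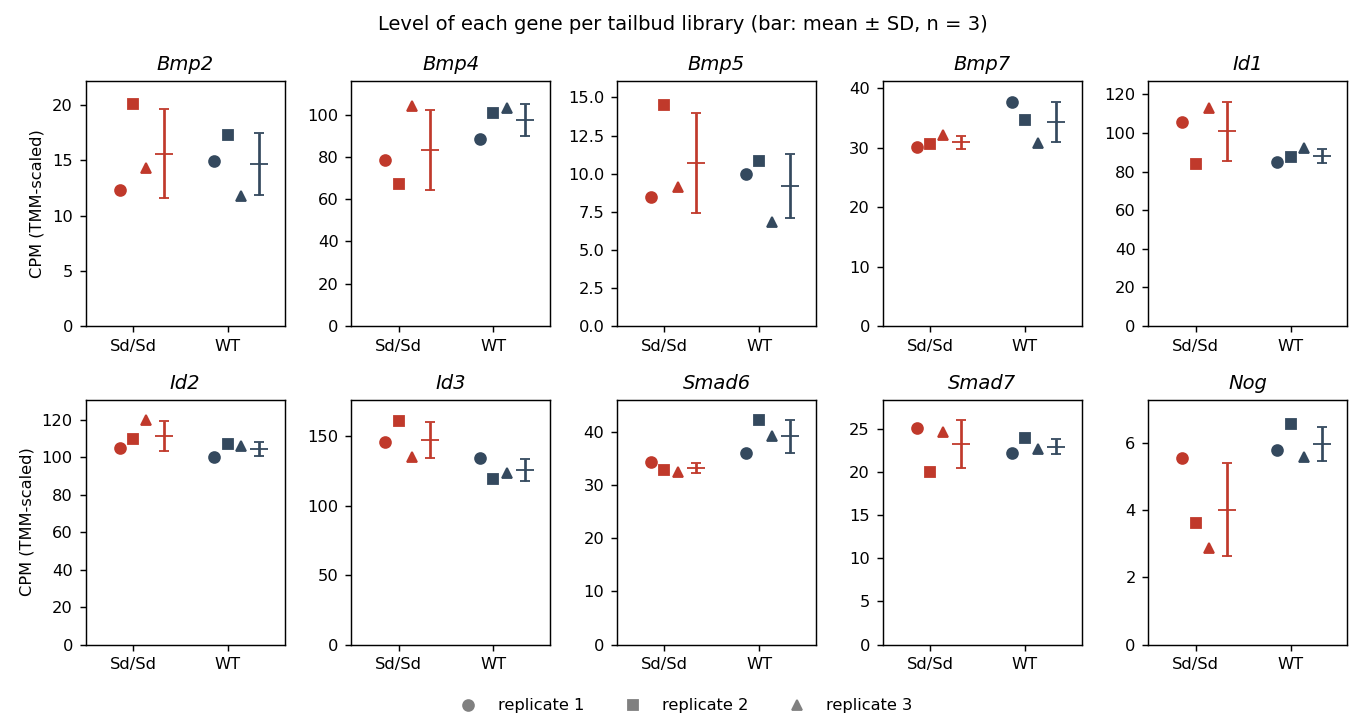
CPM of each of the 10 genes (y axes, linear from 0) in the 3 Sd/Sd (red, left) and 3 WT (dark, right) libraries, with marker shape for the replicate number and bars for mean ± SD (n = 3). The groups separate for Smad6 and, by small gaps, for Id3 (135 to 161 CPM in Sd/Sd, 119 to 134 CPM in WT) and Nog, and overlap for the other 7 genes.

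The ligand genes spanned a wide range of levels, and Bmp4 dominated. Compared per kilobase of exon, which allows genes of different length to be set side by side, Bmp4 stood at 37.0 ± 8.49 CPM per kb in Sd/Sd and 43.4 ± 3.44 CPM per kb in WT (SD, n = 3 each). Bmp7 stood at 7.70 ± 0.267 CPM per kb in Sd/Sd and 8.55 ± 0.856 in WT. For Bmp2 the values were 4.39 ± 1.14 CPM per kb in Sd/Sd and 4.12 ± 0.791 in WT, and for Bmp5 they were 2.66 ± 0.820 in Sd/Sd and 2.29 ± 0.525 in WT. Of the length-scaled signal of these 4 genes, Bmp4 made up 72.8%, 63.8% and 76.4% in Sd/Sd replicates 1 to 3 and 71.1%, 73.5% and 78.4% in WT replicates 1 to 3. Bmp4 was thus the main ligand transcript of the set in all 6 libraries, and its smallest share was that of Sd/Sd replicate 2.

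Bmp4 (ENSMUSG00000021835.8, chromosome 14), whose protein patterns ventral mesoderm, measured 78.6, 67.0 and 104 CPM in Sd/Sd replicates 1 to 3, against 88.7, 101 and 103 CPM in WT replicates 1 to 3. The Sd/Sd libraries held both the lowest and the highest value, so the groups overlapped. Sd/Sd over WT gave a log2 fold change of -0.23 (SE 0.16, 95% interval -0.60 to 0.14, edgeR adjusted p = 1.00). Without Sd/Sd replicate 3 it was -0.42 (unadjusted p = 0.00195, edgeR adjusted p = 0.428), and without Sd/Sd replicate 2 it was -0.09 (edgeR adjusted p = 0.932); over all alternatives the adjusted p was 0.428 to 1.00. Sd/Sd replicate 2, lowest in Bmp4, was also lowest in the summed tailbud progenitor markers (318 CPM, against 525 and 719 in the other Sd/Sd libraries); the part of those cells in the Bmp4 value was not tested. In bulk tissue, fewer cells of a type and less RNA per cell cannot be told apart. The promoter of this main ligand is shown as the 250 bases upstream of its start in RefSeq (GRCm38.p6, chr14:46390670-46390919, minus strand, 5′ to 3′); it has 63.2% GC, holds no annotated exon, and has neither GGCGCC, a palindrome that BMP-regulated SMADs bind, nor CAGAC, a core that SMAD proteins bind, on either strand, so no letters are in capitals.

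Bmp4: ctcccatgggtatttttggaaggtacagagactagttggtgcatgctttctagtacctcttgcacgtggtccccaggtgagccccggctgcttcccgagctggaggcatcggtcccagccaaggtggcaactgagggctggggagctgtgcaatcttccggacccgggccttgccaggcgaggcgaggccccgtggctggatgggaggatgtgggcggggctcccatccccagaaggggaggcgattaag

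Bmp7 (ENSMUSG00000008999.7, chromosome 2), a ligand that can pair with BMP2 or BMP4 in heterodimers, measured 30.1, 30.6 and 32.1 CPM in Sd/Sd, against 37.7, 34.6 and 30.8 CPM in WT. WT replicate 3 lay inside the Sd/Sd range, which was narrow. Its log2 fold change was -0.15 (SE 0.09, 95% interval -0.36 to 0.06, edgeR adjusted p = 1.00). It was -0.08 without WT replicate 1 and -0.22 without WT replicate 3 (unadjusted p = 0.0503).

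Bmp2 (ENSMUSG00000027358.6, chromosome 2), a close relative of Bmp4, measured 12.3, 20.1 and 14.3 CPM in Sd/Sd, against 14.9, 17.3 and 11.7 CPM in WT. Bmp5 (ENSMUSG00000032179.7, chromosome 9), of the Bmp7 subgroup, measured 8.49, 14.5 and 9.14 CPM in Sd/Sd, against 9.96, 10.8 and 6.82 CPM in WT. Both genes had their highest value in Sd/Sd replicate 2 and their lowest in WT replicate 3. Their log2 fold changes were 0.09 (SE 0.21, 95% interval -0.38 to 0.56) and 0.22 (SE 0.25, 95% interval -0.35 to 0.78), each with an edgeR adjusted p = 1.00. Without Sd/Sd replicate 2 both turned negative, at -0.14 for Bmp2 and -0.064 for Bmp5. In that library the neural crest list stood at a mean centred log2 CPM of 1.14 and the somite list at 1.54, the highest of the 6 libraries. WT replicate 2, second highest in both genes, stood at -0.03 in the neural crest list and -0.65 in the somite list. The primitive erythroid marker list, added after its values were seen, was at 1.11 in Sd/Sd replicate 2 and 0.94 in WT replicate 2. It was negative in the remaining libraries. The part of neural crest, somite or erythroid cells in the values of Bmp2 and Bmp5 was not tested.

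The Id genes were the most abundant transcripts of the set beside Bmp4. Id1 stood at 87.0 ± 13.0 CPM per kb in Sd/Sd and 76.0 ± 3.27 in WT, Id3 at 82.3 ± 7.26 in Sd/Sd and 70.3 ± 4.36 in WT, and Id2 at 45.8 ± 3.24 in Sd/Sd and 42.9 ± 1.58 in WT (SD, n = 3 each). In WT, Id1 lay at percentile 96.6 of the length-scaled levels of genes tested. Id1 and Id3 overlapped in level in both groups, and so did Bmp4 and Id2, whereas Id3 and the next gene down did not overlap in either group.

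Id3 (ENSMUSG00000007872.3, chromosome 4) measured 146, 161 and 135 CPM in Sd/Sd replicates 1 to 3, against 134, 119 and 124 CPM in WT replicates 1 to 3. All Sd/Sd libraries lay above all WT libraries, with Sd/Sd replicate 3 and WT replicate 1 less than 1 CPM apart. Id3 had a log2 fold change of 0.23 (SE 0.08, 95% interval 0.04 to 0.41), a 1.17-fold higher level, with an unadjusted p = 0.0211 and an edgeR adjusted p = 1.00. Over the alternatives the log2 fold change ranged from 0.16, without Sd/Sd replicate 2, to 0.29, without Sd/Sd replicate 3, and the adjusted p from 0.596 to 1.00.

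Id1 (ENSMUSG00000042745.9, chromosome 2) measured 106, 84.0 and 113 CPM in Sd/Sd, against 84.9, 87.4 and 92.3 CPM in WT. Of the Sd/Sd libraries, replicates 1 and 3 lay above every WT library and replicate 2 lay below every one. Its log2 fold change was 0.19 (SE 0.11, 95% interval -0.05 to 0.43, edgeR adjusted p = 1.00). Without Sd/Sd replicate 2 it was 0.31 (unadjusted p = 0.00263, edgeR adjusted p = 0.628; adjusted p 0.628 to 1.00 over all alternatives), and without Sd/Sd replicate 3 it was 0.10 (unadjusted p = 0.327).

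Id2 (ENSMUSG00000020644.8, chromosome 12) measured 105, 110 and 120 CPM in Sd/Sd, against 100.03, 107 and 106 CPM in WT. The groups overlapped, and the spread over all libraries was the smallest of the 10 genes. Id2 had a log2 fold change of 0.09 (SE 0.07, 95% interval -0.07 to 0.26, edgeR adjusted p = 1.00), so a change of Id2 by more than 1.20-fold upward lies outside that interval. Without Sd/Sd replicate 3 the log2 fold change was 0.04, and without Sd/Sd replicate 1 it was 0.14.

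Among the Sd/Sd libraries Id1 and Id3 ran opposite ways: replicate 2 had the lowest Id1 and the highest Id3. Their sum with Id2 was therefore more even than either gene. The summed level of Id1, Id2 and Id3 was 356, 355 and 369 CPM in Sd/Sd, against 319, 314 and 322 CPM in WT, a ratio of the means of 1.13. These sums did not overlap; they were formed after the values were seen and were not tested.

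The RefSeq promoter table had entries for 5 of the 10 genes (Bmp4, Bmp5, Id2, Id3 and Smad6). For Bmp5, Id2 and Id3, stretches of 30 bases around the SMAD-binding letters upstream of their starts (GRCm38.p6) show what the windows hold. GGCGCC was found once, 231 to 226 bases upstream of the Id2 start (chr12:25096306-25096335, minus strand), and CAGAC or its reverse complement GTCTG at 167 to 163 bases and at 68 to 64 bases upstream of the Id3 start (chr4:136143643-136143672 and chr4:136143742-136143771, plus strand). The Bmp5 window held 1 match to GTCTG, 134 to 130 bases upstream of the start (chr9:75775219-75775248, plus strand), and no GGCGCC. Capitals mark the matched letters. Of 32851 upstream windows of 250 bases in the table, 9.59% held GGCGCC and 42.2% held CAGAC on either strand, so these matches are a description only. In GENCODE M21 all 250 bases of the Id3 window and 161 of the Id2 window lie within an annotated exon of the same gene.
Bmp5, GTCTG: tagatcactgttGTCTGttacatgcatggc
Id2, GGCGCC: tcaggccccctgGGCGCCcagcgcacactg
Id3, CAGAC: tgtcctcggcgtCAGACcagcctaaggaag
Id3, GTCTG: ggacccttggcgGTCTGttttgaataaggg

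Of the inhibitory Smad genes, only Smad6 separated the groups. Smad6 (ENSMUSG00000036867.5, chromosome 9), whose product competes in BMP receptor signalling, measured 34.3, 32.8 and 32.4 CPM in Sd/Sd, against 36.0, 42.1 and 39.2 CPM in WT. All Sd/Sd libraries lay below all WT libraries, and the Sd/Sd values were close together. Smad6 had a log2 fold change of -0.24 (SE 0.08, 95% interval -0.43 to -0.05), with an unadjusted p = 0.0184, the smallest of the 10 genes, and an edgeR adjusted p = 1.00. It stayed between -0.29 and -0.18 over the alternatives, with an adjusted p of 0.830 to 1.00. Smad6 is known for its expression in endothelium. Of the endothelial markers, 10 of 10 tested had a negative log2 fold change (median -0.19), 0 passed the test and none was at 0. Over all genes tested, 49.9% of log2 fold changes were positive. The summed CPM of these markers was 494, 490 and 682 in Sd/Sd replicates 1 to 3, against 577 to 662 in WT libraries. Sd/Sd replicate 3, lowest in Smad6, was thus the highest of the 6 libraries in that sum. The part of endothelial cells in the Smad6 value was not tested.

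The 250 bases upstream of the Smad6 start (RefSeq, GRCm38.p6, chr9:64022060-64022309, minus strand) are shown because Smad6 had the smallest p of the set. They have 66.8% GC and 27 CpG dinucleotides and hold neither GGCGCC nor CAGAC on either strand.
Smad6: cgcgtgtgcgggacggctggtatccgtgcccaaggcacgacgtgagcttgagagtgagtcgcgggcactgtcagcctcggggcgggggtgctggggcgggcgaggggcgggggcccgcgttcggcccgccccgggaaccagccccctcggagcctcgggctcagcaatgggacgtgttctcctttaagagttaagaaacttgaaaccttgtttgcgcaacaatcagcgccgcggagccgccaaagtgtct

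Smad7 (ENSMUSG00000025880.5, chromosome 18), which inhibits both TGF-beta and BMP receptors, measured 25.1, 20.1 and 24.6 CPM in Sd/Sd, against 22.3, 24.0 and 22.7 CPM in WT. Sd/Sd held both extremes. The log2 fold change was 0.02 (SE 0.11, 95% interval -0.23 to 0.26, edgeR adjusted p = 1.00), and its sign depended on which library was left out.

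Nog (ENSMUSG00000048616.3, chromosome 11) had the lowest log2 fold change of the set. It measured 5.56, 3.63 and 2.88 CPM in Sd/Sd replicates 1 to 3, from 229, 227 and 141 counts, against 5.80, 6.57 and 5.59 CPM in WT replicates 1 to 3, from 306, 347 and 236 counts. Sd/Sd replicate 1 lay just under the lowest WT library, and Sd/Sd replicates 2 and 3 lay well below it. The log2 fold change was -0.58 (SE 0.25, 95% interval -1.14 to -0.01), with an unadjusted p = 0.0454 and an edgeR adjusted p = 1.00. It was -0.88 without Sd/Sd replicate 1 (edgeR adjusted p = 1.00), -0.51 without Sd/Sd replicate 2 (0.840) and -0.39 without Sd/Sd replicate 3 (0.986); over all alternatives the adjusted p was 0.840 to 1.00. Per kb, Nog stood at 2.37 ± 0.816 in Sd/Sd and 3.53 ± 0.303 in WT, so it ranked last of the 10 genes in Sd/Sd and ninth in WT, where Bmp5 was last; the ranges of Nog and Bmp5 overlapped in Sd/Sd and not in WT.

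Notochord, a source of noggin, is known to be reduced in Sd embryos, and its markers are given beside Nog. Of the 6 tested notochord markers other than Nog and Chrd (Noto, T, Shh, Foxa1, Foxa2 and Foxj1), 6 of 6 had a negative log2 fold change (median -1.10), 1, Shh, fell, and none was at 0. Without T, which is also made by tailbud progenitors and was left out after the values were seen, their summed CPM was 24.8, 18.9 and 14.3 in Sd/Sd, against 50.1, 45.8 and 53.2 in WT, without overlap. With T it was 168, 96.1 and 218 in Sd/Sd, against 194, 198 and 237 in WT, with overlap. Noto, the defining notochord gene of the list, measured 2.23, 0.144 and 1.71 CPM in Sd/Sd, against 8.04, 8.53 and 11.1 CPM in WT, and was lowest in Sd/Sd replicate 2, whereas Nog was lowest in Sd/Sd replicate 3. Shh, Foxa1 and Foxa2 are made in hindgut and floor plate as well. Of the hindgut endoderm markers, which share these 3 genes, 8 of 8 tested had a negative log2 fold change (median -0.81), 2 fell, Shh and Ihh, and none was at 0. Their summed CPM was 106 to 217 in Sd/Sd libraries, against 178 to 239 in WT libraries. Ihh, a hedgehog ligand gene of gut endoderm, lay at -1.93 on the log2 scale, Sd/Sd over WT (SE 0.24), with an edgeR adjusted p = 0.0439. Somites and dorsal neural tube also make noggin. In Sd/Sd replicate 3, lowest in Nog, the somite list had a mean centred log2 CPM of -3.08 and the roof plate and dorsal neural list -1.49. Both were the lowest of the 6 libraries. Sd/Sd replicate 2, also low in Nog, was the highest in both lists, at 1.54 and 1.29. The part of notochord, hindgut, somite or dorsal neural cells in the Nog value was not tested.

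**Figure D2:**
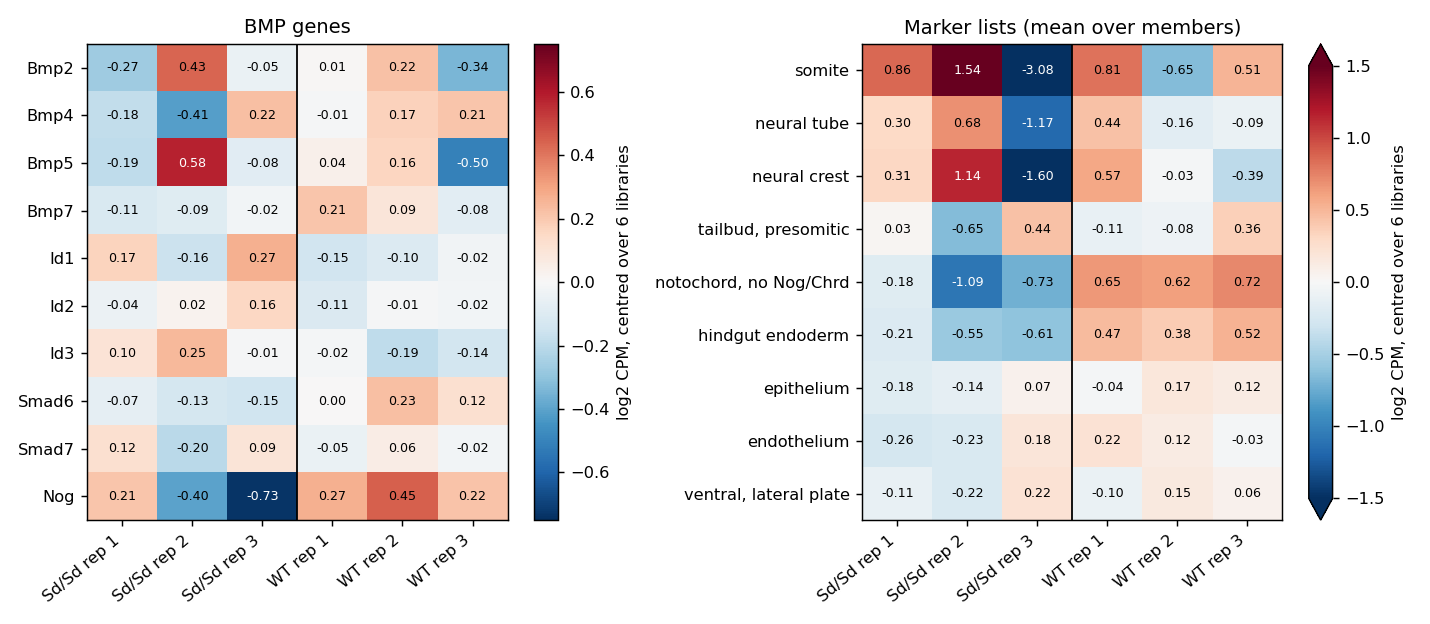
Log2 CPM centred over the 6 libraries for each of the 10 genes (left) and its mean over the members of marker lists (right), by library, with Sd/Sd left of WT; red is above and blue below the mean, and the right colour scale is clipped. Sd/Sd replicate 2 is highest in Bmp2 (0.43) and Bmp5 (0.58) and lowest in Bmp4 (-0.41), and Nog is lowest in Sd/Sd replicate 3 (-0.73), the library in which the somite list is at -3.08.

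**Figure D3:**
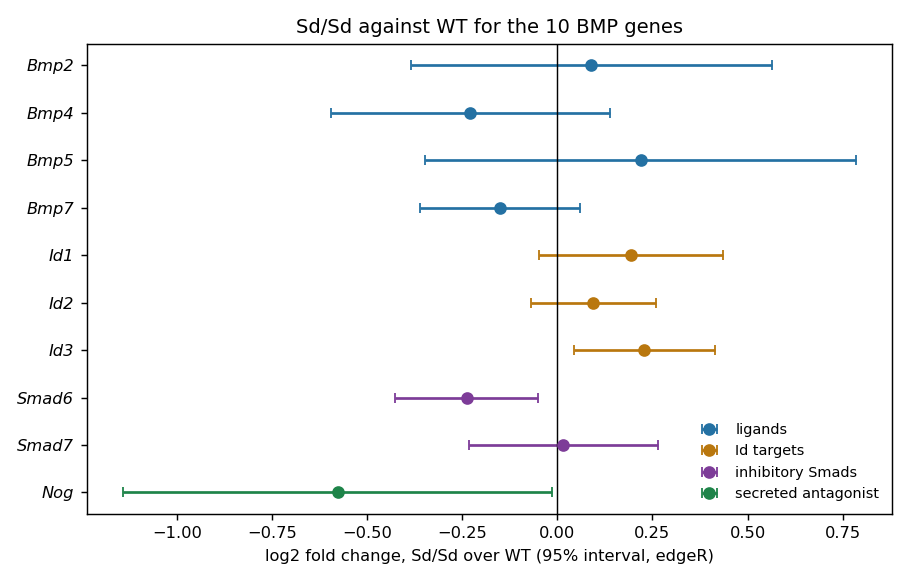
Log2 fold change of Sd/Sd over WT from edgeR (x axis) with its 95% interval for each of the 10 genes, coloured by role. Intervals for Id3 (0.04 to 0.41), Smad6 (-0.43 to -0.05) and Nog (-1.14 to -0.01) leave out 0 before adjustment over all genes; the other 7 include it.

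The intervals were taken before adjustment over all genes, so they do not set the sizes of change that the adjusted test could miss. For the Id genes, Bmp7, Smad6 and Smad7 the intervals spanned 0.744-fold to 1.35-fold at the widest. Those of Bmp5 and Nog reached 1.72-fold upward and 0.454-fold downward. A larger estimate than that of Smad6, at like precision, was also not called. Cldn6, an epithelial marker gene added after its values were seen, stood at 0.697-fold in Sd/Sd over WT (log2 SE 0.08, edgeR adjusted p = 0.173). Whether that is a true change is not known, so it does not show what the test misses. Its coefficient of biological variation was 9.07%. The per-gene coefficient of biological variation was 8.37% for Id2 and 9.57% for Smad6, against 24.0% for Bmp5 and 25.2% for Nog.

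The rest of the pathway, listed by role, comprised 74 gene symbols, of which 73 were found in the files; it had 62 tested genes and 0 calls in either direction by edgeR, DESeq2 and limma-voom. At an unadjusted p under 0.05 edgeR had 3 lower and 0 higher, against 1.95% lower and 0.944% higher over all genes tested, and 39 of 62 log2 fold changes were negative with a median of -0.06. Without Sd/Sd replicate 3, 11 of 64 lay at an unadjusted p under 0.05, 6 lower and 5 higher, where 5.36% of all genes in that fit lay, and without WT replicate 2 it was 1 of 63, against 1.81%. The groups did not overlap for 4 genes, all lower in Sd/Sd, against 4.42% lower and 3.26% higher over all genes tested. They were the antagonist genes Fstl3 and Sost and the transcription factor genes Gata3 and Tbx3.

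Secreted antagonists and modulators other than Nog had 13 of 16 negative log2 fold changes with a median of -0.18. Sd/Sd replicate 3, the library poorest in somite markers, stood apart in this list: its mean centred log2 CPM was -0.68, against -0.02 and 0.13 in the other Sd/Sd libraries and 0.14 to 0.28 in WT libraries. That mean includes Cer1, added after its values were seen, which had 1 count (0.0204 CPM) in Sd/Sd replicate 3. Cer1 measured 12.5 and 7.52 CPM in Sd/Sd replicates 1 and 2 and 8.34 to 9.10 CPM in WT libraries. This gene near the floor thus lowered the mean of Sd/Sd replicate 3. Without Sd/Sd replicate 3, 12 of 17 were negative with a median of -0.07, and without Sd/Sd replicate 2 the median was -0.28. The part of somite cells in these values was not tested. Fstl3, which encodes a follistatin-like protein that binds activins, measured 3.18, 3.40 and 3.71 CPM in Sd/Sd, against 4.15, 4.94 and 5.21 CPM in WT (log2 fold change -0.47, SE 0.19, unadjusted p = 0.0319, edgeR adjusted p = 1.00). Sost, which encodes sclerostin, a secreted cystine-knot protein that inhibits Wnt signalling, measured 10.6, 8.88 and 9.04 CPM in Sd/Sd, against 10.9, 11.4 and 13.9 CPM in WT (log2 fold change -0.35, SE 0.15, unadjusted p = 0.0415, edgeR adjusted p = 1.00). Chordin, the other notochord antagonist, is added after its values were seen: Chrd measured 3.20, 4.23 and 4.67 CPM in Sd/Sd, against 6.16, 4.35 and 5.28 CPM in WT, with overlap between the groups (log2 fold change -0.38, SE 0.22; adjusted p of 1.00 in edgeR). Nog and Chrd differed in which Sd/Sd library was lowest, replicate 3 for Nog and replicate 1 for Chrd.

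Other targets had 8 of 11 negative log2 fold changes with a median of -0.12, the opposite sign to Id1, Id2 and Id3. The median was -0.20 without Sd/Sd replicate 3 and -0.19 without Sd/Sd replicate 1. The 3 genes with the same sign as Id1, Id2 and Id3 are added after their values were seen. They were Atoh8 (log2 fold change 0.19, SE 0.11), Msx1 (0.16, SE 0.14) and Bambi (0.06, SE 0.18), none of them called. Gata3, a zinc-finger factor of nephric duct and ectoderm, measured 17.3, 17.6 and 18.6 CPM in Sd/Sd, against 20.9, 21.2 and 24.8 CPM in WT (log2 fold change -0.32, SE 0.11, unadjusted p = 0.0140, edgeR adjusted p = 1.00). Tbx3, a T-box factor of ventral and limb tissues, measured 56.7, 40.9 and 63.8 CPM in Sd/Sd, against 65.7, 66.9 and 68.3 CPM in WT (log2 fold change -0.32, SE 0.15; adjusted p of 1.00 in edgeR), and like Bmp4 was lowest in Sd/Sd replicate 2. Id4, the fourth gene of the Id family, is added after its values were seen: it measured 2.28 to 2.62 CPM in Sd/Sd, against 2.58 to 3.61 CPM in WT, with overlap (log2 fold change -0.35, SE 0.22; adjusted p of 1.00 in edgeR).

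No gene of the receiving machinery passed the test. Receptors and co-receptors had 5 positive and 7 negative log2 fold changes (median -0.03), the smallest unadjusted p values being those of Eng, the endothelial co-receptor gene (log2 fold change -0.13, SE 0.09), and Rgmb, a co-receptor of neural tissue (0.26, SE 0.25). The signal-transducing Smads lay at -0.13 for Smad9 and 0.07 for Smad1 at the extremes, with a median of 0.03. Among intracellular modulators the median was 0.03, with Tab1, a partner of the kinase TAK1, at 0.12 (SE 0.08) and Skil, a SMAD corepressor gene, at -0.15 (SE 0.11). The chordin protease genes Tll1 and Bmp1 lay at -0.43 (SE 0.27) and -0.05 (SE 0.10). Of the other ligands, 5 of 11 were tested, with Bmp6 at -0.26 (SE 0.27) and Bmp8a at -0.18 (SE 0.47); their median was -0.03, and -0.46 without Sd/Sd replicate 2. Each gene named here had an edgeR adjusted p = 1.00.

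**Figure D4:**
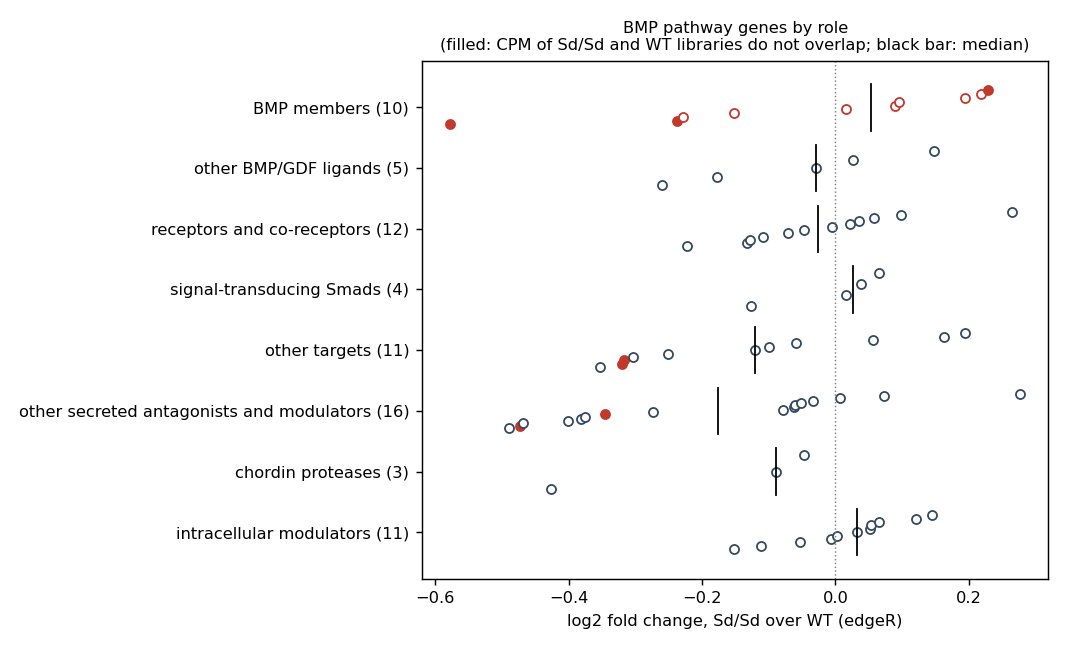
Log2 fold change of Sd/Sd over WT from edgeR (x axis) for the 10 BMP genes and for 62 further tested pathway genes by role (rows, number tested in parentheses); filled points are genes whose CPM does not overlap between the groups and black bars are medians. The secreted antagonists (median -0.18) and other targets (median -0.12) lie furthest to the left, and Nog (-0.58) is the lowest point of all roles.

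Genes with the most similar pattern over the 6 libraries were found by the root mean square difference of centred log2 CPM among tested genes with a mean of at least 1 CPM. The nearest to Nog was Foxf2, at 0.080. The nearest to Smad6 were Mkx at 0.027 and Furin at 0.030, to Bmp4 Matn3 at 0.047, and to Bmp2 Dlk1 at 0.058. No other member was among the 3 nearest genes of any member. These likenesses rest on 6 libraries and are given as a description.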

How the data were processed

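Polyadenylated RNA of 6 tailbud libraries was sequenced, and the authors deposited raw counts per Ensembl gene for each. Per the submitters' processing notes the build was mm9 and the tools included STAR 2.5.2b and DESeq2; the kit was stranded per the labels' protocols. The counter, its strand setting and its annotation are not stated in what was used here, so overlapping genes on opposite strands cannot be told apart.

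GENCODE M21 (GRCm38) supplied symbols for 32620 of 37310 identifiers, chromosomes and the merged exon lengths behind levels per kb. None of 2269 chromosome X identifiers has a count, so X-linked pathway genes are not analysed here.

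Genes were kept by filterByExpr (minimum count 10, total 15) and compared in edgeR 4.0.16 (R 4.3.3). The test used TMM and a robust quasi-likelihood fit and was two-sided, with Benjamini-Hochberg adjustment over 15471 genes and threshold 0.05. The fit was also run on simulated data with known changes larger than those of the 10 genes. That run therefore says nothing of recovery at their size. SE is the size of the log2 fold change over the square root of F, and 95% intervals use its t quantile. Log2 CPM used a prior count of 2. Alternatives included DESeq2 1.42.0 and limma-voom (limma 3.58.1). With 3 against 3 libraries, exact permutation reaches no p under 0.1. The labels name no litters, so the p-values reflect variation among these libraries only, which may be technical.

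The members and lists were chosen with earlier results of these data known. Named were all members, Ptf1a, and from each pathway list the genes past the threshold or else up to 2 with the smallest p; other genes are marked. Deviations of same-numbered libraries from their group means correlated at 0.194, 0.144 and 0.275 over genes, though Sd/Sd replicate 2 with WT replicate 1 gave 0.182. As all 3 lie above 0.1, the numbers were taken as a pairing, from the data and not the labels, in a fit with a replicate block.

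Totals of 41788978 to 62296689 counts gave each member at least 141 counts in every library, so the spread between libraries rather than counting set the precision.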

Additional observations from a re-analysis of the deposited data

How the results depend on the processing

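All 10 genes stayed uncalled under the 15 alternatives run, as did the rest of the pathway (0 of 10 and 0 called in each). With dispersions not robust 2 of the 10, Id3 and Smad6, were at an unadjusted p under 0.05. Counts over all genes moved more: 9 genes were called, against 40 with DESeq2, 3 with limma-voom, 3 with dispersions not robust and 14 with no filter on low counts. Leaving out 1 library gave 2 to 6 genes (2 without WT replicate 2, 6 without Sd/Sd replicate 2). With the replicate block, 12 genes and 0 of the 10 were called, so this pairing changed no call of the set; its median log2 fold change was 0.044. The median log2 fold change of the 10 genes was 0.053, and -0.078 to 0.082 with 1 library left out, lowest without Sd/Sd replicate 2. Signs turned for 3 genes; the cause was not tested. Smad7 was -0.0066 with limma-voom and ranged from -0.038 to 0.11 with 1 library left out. Bmp2 ranged from -0.14 to 0.24, negative without Sd/Sd replicate 2 and, at -0.048, without WT replicate 3. Bmp5 ranged from -0.064 to 0.36, negative without Sd/Sd replicate 2. The other 7 genes kept their direction in all 15. Scaling moved the median over all genes by under 0.1 on the log2 scale (-0.014 with no factors).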
